A study of Mus musculus with 6 samples.

Results

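Wild-type marrow was followed in tumours of hosts that carried or lacked Mtdh, so that the host was the labelled difference and the immune cells came from wild-type donors in both cases. The comparison holds 2 of the 6 libraries of the series: WT marrow in KO host (knockout) with 5405 kept cells, and WT marrow in WT host (wild type) with 6109 kept cells, out of 37992 kept cells in all. The members were taken from the sample labels. Each group is 1 library, so no test between the hosts exists, and every difference below is a description whose interval covers counting error only.

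Mtdh KO and WT mice were irradiated, given WT marrow, and injected with Py8119 mammary tumour cells 8 weeks later. After 4 weeks of growth the tumours were dissociated, live CD45+ cells were sorted, and about 15000 cells per library were loaded for droplet 3' RNA sequencing. All mice were female. The other 4 libraries, used here only for side-by-side values, were KO marrow in KO host, KO marrow in WT host, intact KO mice and intact WT mice. How many mice stand behind a library, their age and strain, the part of Mtdh that was deleted, the tissues in which the deletion acts, and the host immune cells that survived irradiation are not stated in the labels.

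Mtdh (metadherin) encodes a scaffold protein best known for promoting growth and spread of breast cancer cells. Tumour-associated macrophages range between a state rich in major histocompatibility complex (MHC) class II, which presents antigen to CD4 T cells, and states rich in Arg1, Spp1 and other genes of hypoxic or repair-type macrophages. Interferon gamma, made by T and NK cells, is the main inducer of MHC class II and of the chemokines Cxcl9 and Cxcl10 in macrophages, while type I interferon induces genes such as Isg15 and the Ifit family in most cells.

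The targeted gene was examined first. In macrophages Mtdh was at 110 CPM in the KO host (CPM, the unique molecular identifiers, or UMIs, of a gene per 1000000 UMIs summed over the class, with an exact 95% Poisson interval of 108 to 112) and at 113 CPM in the WT host (110 to 115). In CD8 T cells Mtdh was at 78.8 CPM in the KO host and 72.5 CPM in the WT host, and in neutrophils at 77.7 CPM in the KO host and 69.4 CPM in the WT host. Macrophages of KO marrow held 12.5 CPM of Mtdh in the KO host and 19.3 CPM in the WT host, and those of intact KO mice held 15.4 CPM against 112 CPM in intact WT mice. Macrophages of both libraries thus carried Mtdh near the level of intact WT macrophages, as the marrow label says. In CD8 T cells and neutrophils the level was close between the hosts. Mtdh of the other immune classes is not given here. The sorted cells give no check of the host label.

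The KO-host library held 121627871 UMIs over 5964 barcodes, and the WT-host library 99532906 UMIs over 6648 barcodes. Median depth per kept cell was 18522 UMIs in the KO host and 13780 UMIs in the WT host, and the median mitochondrial share was 3.08% in the KO host and 2.97% in the WT host. The libraries shared 11 barcodes, against 8 to 25 over all pairs of the series. Cells were assigned to classes by marker genes: complement C1q or the macrophage receptors Adgre1, Csf1r and Mrc1 for macrophages, S100a8 and S100a9 for neutrophils, the CD3 complex for T cells, and Cd79a and Cd79b among others for B cells. Cells with the keratins Krt8 and Krt18, Sparc and collagens are called mesenchymal-like, and they went against the sort. Their Ptprc, the gene of CD45, was at 6.91 CPM in the KO host and 8.26 CPM in the WT host, against 392 CPM in KO-host macrophages and 347 CPM in WT-host macrophages, and their Mtdh was at 371 CPM in the KO host and 437 CPM in the WT host.

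Macrophages made up most cells on both sides and more of them in the KO host, while neutrophils and T cells took smaller shares there. Macrophages were 80.4% of kept cells in the KO host (4346 cells, Clopper-Pearson 95% interval 79.3 to 81.5%) and 71.8% in the WT host (4387 cells, 70.7 to 72.9%). Neutrophils were 3.02% in the KO host (163 cells) and 6.63% in the WT host (405 cells), a ratio of 0.455 (0.377 to 0.547). All T cells together were 2.92% in the KO host (158 cells) and 5.27% in the WT host (322 cells), a ratio of 0.555 (0.456 to 0.673). Neither of these intervals reached 1. Cells that met no gate were 2.20% in the KO host and 5.34% in the WT host. With these added to the macrophages, the shares came to 82.6% in the KO host and 77.1% in the WT host. Shares of 1 library sum to 100%, so a larger macrophage share lowers the sum of the others. Outside the macrophages, neutrophils were 15.4% of 1059 cells in the KO host and 23.5% of 1722 cells in the WT host. T cells were 14.9% of these cells in the KO host and 18.7% in the WT host. Mesenchymal-like cells were 33.3% of them in the KO host and 22.4% in the WT host, which lowers the sum of the other KO-host shares in turn.

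The host pair under KO marrow ran the other way for these 3 classes, as values of 1 library a side. With KO marrow, macrophages were 57.4% of KO-host cells against 67.5% of WT-host cells, neutrophils 5.96% of KO-host cells against 4.24% of WT-host cells, and T cells 19.3% of KO-host cells against 7.87% of WT-host cells. Among intact mice, macrophages were 65.1% of KO cells against 84.5% of WT cells, neutrophils 0.818% of KO cells against 1.14% of WT cells, and T cells 10.2% of KO cells against 3.11% of WT cells. The difference between the pairs was not tested.

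Among T cells the smaller share held for the helper and regulatory classes as well as for CD8. CD8 T cells, which kill target cells, were 1.5% in the KO host (81 cells) and 2.14% in the WT host (131 cells), a ratio of 0.699 (0.523 to 0.929). CD4 T cells without Foxp3 were 0.722% in the KO host (39 cells) and 1.24% in the WT host (76 cells). Regulatory T cells, marked by Foxp3, numbered 4 in the KO host and 31 in the WT host, a ratio of 0.146 (0.0374 to 0.412). They were 2.53% of T cells in the KO host (0.694 to 6.35%) and 9.63% in the WT host (6.64 to 13.4%). The CD8 share of T cells was 51.3% in the KO host (43.2 to 59.3%) and 40.7% in the WT host (35.3 to 46.3%), with intervals that overlapped. T cells that met none of these gates numbered 28 in the KO host and 74 in the WT host, and T-cell depth was a median of 7616.5 UMIs in the KO host and 5181 UMIs in the WT host.

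B cells went the other way. They numbered 50 in the KO host (0.925%, 0.687 to 1.22%) and 4 in the WT host (0.0655%, 0.0178 to 0.168%), a ratio of 14.1 (5.19 to 53.9). B cells were led by immunoglobulin light chain Igkc, Cd79a and Ebf1 on both sides. In the other libraries they were 0.993% in KO marrow in KO host, 3.98% in KO marrow in WT host, 9.62% in intact KO and 2.85% in intact WT, so that the WT-host library stood lowest of the 6. Natural killer (NK) cells (23 in the KO host, 38 in the WT host), monocytes (24 in the KO host, 44 in the WT host), and dendritic cells of all kinds (87 in the KO host, 105 in the WT host) gave share ratios of 0.684, 0.617 and 0.936, and each interval included 1. Mesenchymal-like cells were 6.53% of all kept cells in the KO host and 6.30% in the WT host.

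**Figure D1:**
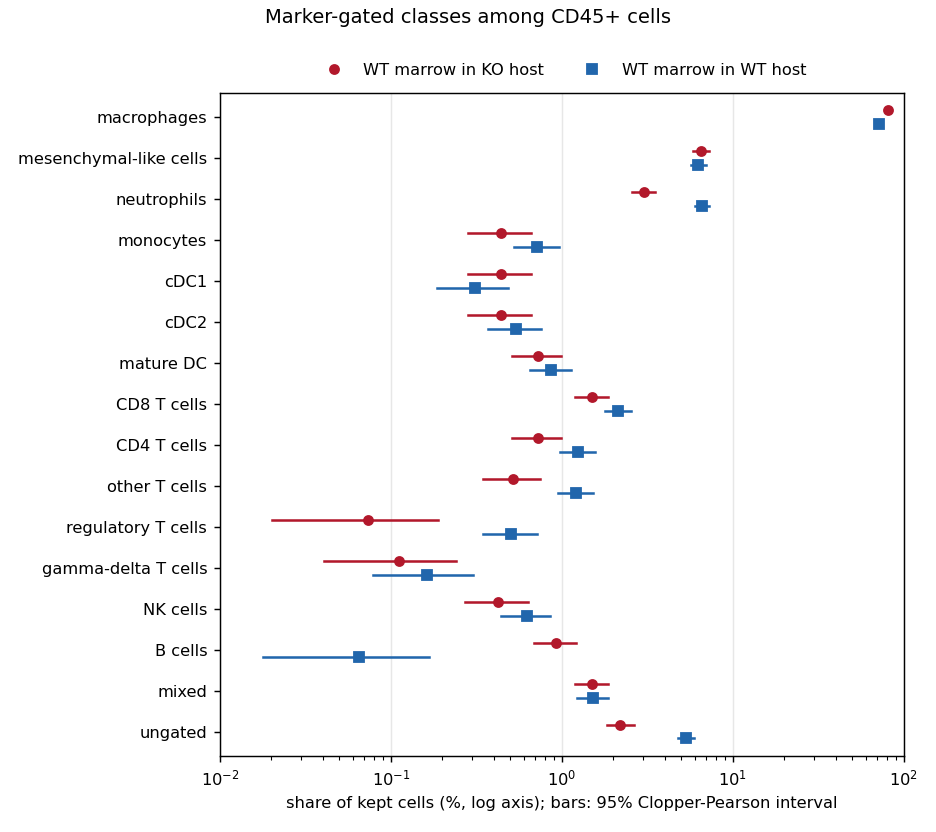
Share of kept cells in each marker-gated class (log axis, %) in WT marrow in KO host (red circles) and WT marrow in WT host (blue squares), with Clopper-Pearson 95% intervals. Neutrophils and CD8, CD4, regulatory and other T cells sit to the left in the KO host, B cells sit to the right (50 against 4 cells), and mesenchymal-like cells and dendritic cells overlap.

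Macrophages of the same donor genotype differed in few genes between the hosts, and those that were higher in the KO host were led by interferon-induced chemokines and MHC class II. Of 7182 genes with at least 50 UMIs in both class sums together and a mean of at least 10 CPM, 12 (0.167%) were at least 2-fold higher in the KO host and 17 (0.237%) at least 2-fold lower, with 10 CPM added to both sides. The share in either direction, 0.404%, compares with 2.34% for the host pair under KO marrow, 4.59% for intact KO over intact WT, and 9.65% for the WT-host library over intact WT. The last pair shares the WT-host library, and in it transplantation and the counting software version cannot be told apart.

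Cxcl9, a chemokine that draws activated T cells through Cxcr3, was at 183 CPM in KO-host macrophages (180 to 186) and 24.2 CPM in WT-host macrophages (23 to 25.3), a ratio of 7.58 (7.21 to 7.98) and the highest of the named macrophage genes. It was found in 905 of 4346 macrophages in the KO host and in 108 of 4387 in the WT host. The UMIs per macrophage that had any were 18.4 in the KO host and 15.4 in the WT host. As a background, 10.8% of KO-host and 2.34% of WT-host mesenchymal-like cells also held a Cxcl9 UMI, at median depths of 27670 UMIs in the KO host and 25624 UMIs in the WT host, against 20.8% of KO-host macrophages (19102.5 UMIs) and 2.46% of WT-host macrophages (14734 UMIs). In mesenchymal-like cells these were 42 UMIs in 38 KO-host cells and 9 UMIs in 9 WT-host cells. Free RNA from cells outside the macrophages was estimated to bring 0.137 CPM of Cxcl9 to KO-host macrophages and 0.172 CPM to WT-host macrophages. That estimate leaves out RNA freed by macrophages themselves, so it cannot bound their background. For scale, Cxcl9 was at 15.5 CPM in KO-host and 3.43 CPM in WT-host neutrophils. It was at 3.58 CPM in KO-host and 0.826 CPM in WT-host mesenchymal-like cells. How many macrophages held a Cxcl9 UMI from free RNA alone was not tested. Ly6a (Sca-1), a surface protein induced by interferons, was at 88.4 CPM in the KO host and 16.0 CPM in the WT host. Ccl5, a chemokine for T cells, was at 73.1 CPM in the KO host and 26.8 CPM in the WT host, and Ccl8, a chemokine for monocytes and T cells, at 157 CPM in the KO host and 65.2 CPM in the WT host. Iigp1, an interferon-induced GTPase of cell-autonomous defence, was at 26.6 CPM in the KO host and 7.59 CPM in the WT host. AW112010 (192 CPM in the KO host, 68.1 CPM in the WT host) and Zmynd15 (122 CPM in the KO host, 34.4 CPM in the WT host) completed the higher named genes outside MHC class II.

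MHC class II was higher as a group. Of its 8 listed genes, 8 were above 0 on the log2 scale, 4 were at least 2-fold higher, and the median log2 ratio was 0.93. Over all genes counted in macrophages, 0.167% were at least 2-fold higher and the median was 0.01. The beta chain H2-Eb1 was at 2412 CPM in the KO host and 865 CPM in the WT host, a ratio of 2.79. H2-Ab1 was at 2953 CPM in the KO host and 1216 CPM in the WT host, and H2-Aa at 2441 CPM in the KO host and 1052 CPM in the WT host. The invariant chain Cd74, which escorts class II molecules, was at 6068 CPM in the KO host and 3014 CPM in the WT host. Ciita, the transcriptional activator of these genes, was at 19.3 CPM in the KO host and 6.23 CPM in the WT host. The peptide editors were closer: H2-DMa was at 445 CPM in the KO host and 342 CPM in the WT host.

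Other antigen-presentation and interferon lists lay above 0 by less. All 8 counted MHC class I genes were higher in the KO host, with a median of 0.36, and none reached 2-fold. Of 12 type I interferon response genes, 12 were above 0 with a median of 0.41, led by Ifit3 at 33.5 CPM in the KO host and 15.7 CPM in the WT host. Of 14 genes in the list of interferon gamma chemokines and enzymes, 12 were above 0 with a median of 0.46. Cxcl10 was at 205 CPM in the KO host and 102 CPM in the WT host. Nos2, the inducible nitric oxide synthase, ran against the list, at 8.67 CPM in the KO host and 26.1 CPM in the WT host.

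The proximal promoters of a few of these genes are shown because members of the group were higher together, with upstream sequence only: the 250 bases before the RefSeq start, 5′ to 3′ on the gene's strand, from RefSeq on GRCm38.p6 (mm10). Cxcl9 lies at chr5:92328080-92328329 (minus strand), H2-Eb1 at chr17:34305617-34305866 (plus) and, as the macrophage gene with the lowest log2 ratio after 10 CPM were added, the neutrophil chemokine Cxcl3 at chr5:90785851-90786100 (plus). Capitals mark matches, on either strand, to ATTGG (the Y box, CCAAT on the other strand) or to a kappa B form (GGG, any 2 bases, then TTTCC).
Cxcl9: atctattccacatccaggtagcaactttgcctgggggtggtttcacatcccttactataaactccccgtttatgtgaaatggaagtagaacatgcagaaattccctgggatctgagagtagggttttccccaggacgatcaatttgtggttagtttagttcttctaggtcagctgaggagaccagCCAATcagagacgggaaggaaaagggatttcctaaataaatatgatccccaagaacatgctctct
H2-Eb1: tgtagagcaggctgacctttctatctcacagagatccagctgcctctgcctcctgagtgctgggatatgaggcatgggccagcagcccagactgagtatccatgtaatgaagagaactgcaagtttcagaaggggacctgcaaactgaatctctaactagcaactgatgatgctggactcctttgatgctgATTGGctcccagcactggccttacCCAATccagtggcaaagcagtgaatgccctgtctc
Cxcl3: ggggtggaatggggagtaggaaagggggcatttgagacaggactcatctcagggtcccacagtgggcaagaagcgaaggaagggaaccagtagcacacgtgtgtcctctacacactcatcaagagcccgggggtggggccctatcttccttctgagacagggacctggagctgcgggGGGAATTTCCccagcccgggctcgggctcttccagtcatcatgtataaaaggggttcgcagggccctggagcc
An ATTGG or CCAAT stood once in the Cxcl9 window, 65 bases before the start, and at 59 and 35 bases before it in H2-Eb1. Of 32851 RefSeq promoter windows of this length, 33.8% hold it on either strand. The kappa B form stood 73 bases before the start of Cxcl3, and 1.41% of windows hold it. RefSeq promoters were matched for 5 of the 10 higher named macrophage genes, of which 3 (Cxcl9, H2-Aa and H2-Eb1) held ATTGG or CCAAT, and for 7 of the 10 lower ones, of which 2 did. The gamma-activated form TTCNNNGAA and an interferon-stimulated response element (GAAA, any 2 bases, then GAAA), held by 7.02% and 2.98% of windows, matched none of these 12 windows. A match is a description of letters, and its absence from 250 bases says nothing about a factor.

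Genes lower in KO-host macrophages included a chemokine of neutrophils, a growth factor and a heme-degrading enzyme. Cxcl3 was at 44.6 CPM in the KO host and 165 CPM in the WT host, a ratio of 0.271 (0.261 to 0.281). Areg, an epidermal growth factor receptor ligand, was at 53.1 CPM in the KO host and 181 CPM in the WT host. Slpi, a protease inhibitor of myeloid cells, was at 25.9 CPM in the KO host and 97.0 CPM in the WT host. Hmox1, which degrades heme, was at 388 CPM in the KO host and 817 CPM in the WT host. Thbd, Car4, Tnfrsf9, Inhba, Rcan1 and Phlda1 were the other named lower genes, 10 of the 16 that passed the rule for naming, with log2 ratios between -1.30 (Thbd) and -1.07 (Phlda1).

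Several lists lay below 0 with small shifts. In the inflammatory cytokine list, 13 of 15 counted genes were below 0, with a median of -0.49, and 1 in each direction was past 2-fold. Over all macrophage genes counted, 0.167% were at least 2-fold higher and 0.237% at least 2-fold lower. Cxcl2, a neutrophil chemokine, was at 2941 CPM in the KO host and 5796 CPM in the WT host, and Il1a at 109 CPM in the KO host and 211 CPM in the WT host, while Il1b was close, at 3256 CPM in the KO host and 3777 CPM in the WT host. In the glycolysis and hypoxia list, 19 of 20 were below 0 with a median of -0.33 and none past 2-fold, led by the lipid-droplet protein Hilpda at 580 CPM in the KO host and 1110 CPM in the WT host. Cholesterol synthesis and uptake genes were below 0 in 12 of 13 cases with a median of -0.24, and none reached 2-fold. Sqle, an early sterol enzyme, was at 21.6 CPM in the KO host and 33.3 CPM in the WT host. Genes of cholesterol efflux had a median of 0.18, with Apoe, the main lipid carrier of macrophages, at 40172 CPM in the KO host and 30128 CPM in the WT host.

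Markers of macrophage states differed in both directions within their lists. Arg1, which consumes arginine, was at 1831 CPM in the KO host and 3191 CPM in the WT host, and Spp1 (osteopontin) at 2541 CPM in the KO host and 4427 CPM in the WT host. Trem2, a lipid receptor, was at 730 CPM in the KO host and 633 CPM in the WT host, and the mannose receptor Mrc1 at 662 CPM in the KO host and 685 CPM in the WT host. The medians of the resident-type, alternative activation, lipid-associated and suppressive macrophage lists lay between -0.14 and 0.05. Lyve1, a marker of perivascular resident macrophages, was at 8.40 CPM in the KO host and 26.9 CPM in the WT host. The list of genes induced by tissue dissociation had a median of 0.03, and the median mitochondrial share of macrophages was 3.11% in both libraries.

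Depth was equalised by drawing 2000 UMIs from each macrophage, which left 4229 cells in the KO host and 4260 in the WT host. H2-Ab1 was then seen in 67.7% of KO-host macrophages and 48.9% of WT-host macrophages, and Cxcl9 in 7.24% of KO-host macrophages and 0.962% of WT-host macrophages. The drawn-down Cxcl9 share of mesenchymal-like cells was 0.295% in the KO host, and 0 of 380 cells in the WT host. Arg1 was seen in 73.3% of KO-host and 86.9% of WT-host macrophages, Spp1 in 72.8% of KO-host and 85.8% of WT-host macrophages, and Hmox1 in 27.4% of KO-host and 42.0% of WT-host macrophages. Il1b was in 77.6% of KO-host and 75.8% of WT-host macrophages. Macrophages with little C1q, admitted by Adgre1, Csf1r and Mrc1, were 3.59% of macrophages in the KO host (156 cells) and 9.71% in the WT host (426 cells). Without them, an alternative chosen after seeing the data, the genes at least 2-fold lower numbered 10 in place of 17. Car4 moved to a log2 ratio of -0.29 without them, and Inhba to -0.71.

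**Figure D2:**
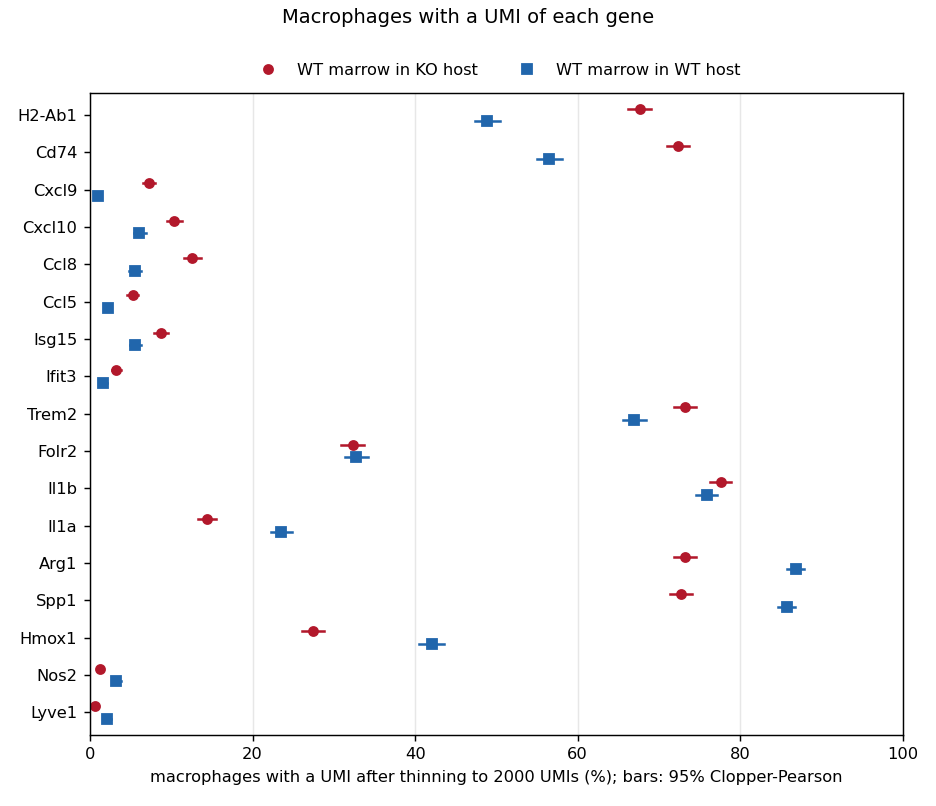
Share of macrophages with at least 1 UMI of each gene after every cell was drawn down to 2000 UMIs (%), in WT marrow in KO host (red circles) and WT marrow in WT host (blue squares), with Clopper-Pearson 95% intervals. H2-Ab1, Cd74, Cxcl9 and Ccl8 sit to the right in the KO host, Arg1, Spp1, Hmox1 and Il1a to the left, and Il1b and Folr2 are close.

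Droplets also hold free RNA from other cells, and the MHC class II chains outside the macrophages lay near or above the level estimated for it. In CD8 T cells, H2-Eb1 was at 112 CPM in the KO host and 43.1 CPM in the WT host, where free RNA, estimated from C1q, would bring 107 CPM in the KO host and 41.9 CPM in the WT host. In mesenchymal-like cells H2-Aa was at 83.8 CPM in the KO host and 37.5 CPM in the WT host, where free RNA would bring 72.4 CPM in the KO host and 32.8 CPM in the WT host. H2-Ab1 lay above its estimate in CD8 T cells, at 225 CPM in the KO host and 89.3 CPM in the WT host against 131 CPM and 57.4 CPM from free RNA in those libraries. After drawing to 2000 UMIs, H2-Ab1 was in 34.6% of KO-host and 8.46% of WT-host CD8 T cells, and in 24.5% of KO-host and 12.9% of WT-host mesenchymal-like cells. No difference in MHC class II is read from these classes. In macrophages the free-RNA estimates of H2-Aa, H2-Ab1 and H2-Eb1 lay between 7.32 and 12.1 CPM in both libraries. These count only RNA of cells outside the macrophages, and RNA freed by macrophages was not measured.

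The same genes are set beside the other libraries as values, each 1 library. Cxcl9 in macrophages was at 1966 CPM in KO marrow in KO host and 111 CPM in KO marrow in WT host, and at 1418 CPM in intact KO and 132 CPM in intact WT. H2-Ab1 was at 8878 CPM in KO marrow in KO host and 2322 CPM in KO marrow in WT host, and at 6916 CPM in intact KO and 1628 CPM in intact WT. With WT marrow, the KO-host level of Cxcl9 (183 CPM) lay nearer to the WT-host and intact WT levels than to those of the libraries in which host and marrow were both KO. Hmox1 was at 378 CPM in KO marrow in KO host and 699 CPM in KO marrow in WT host, and at 198 CPM in intact KO and 264 CPM in intact WT. Cxcl3 and Areg did not keep their order: Cxcl3 was at 163 CPM in KO marrow in KO host and 116 CPM in KO marrow in WT host, and Areg at 144 CPM in intact KO and 23.7 CPM in intact WT.

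**Figure D3:**
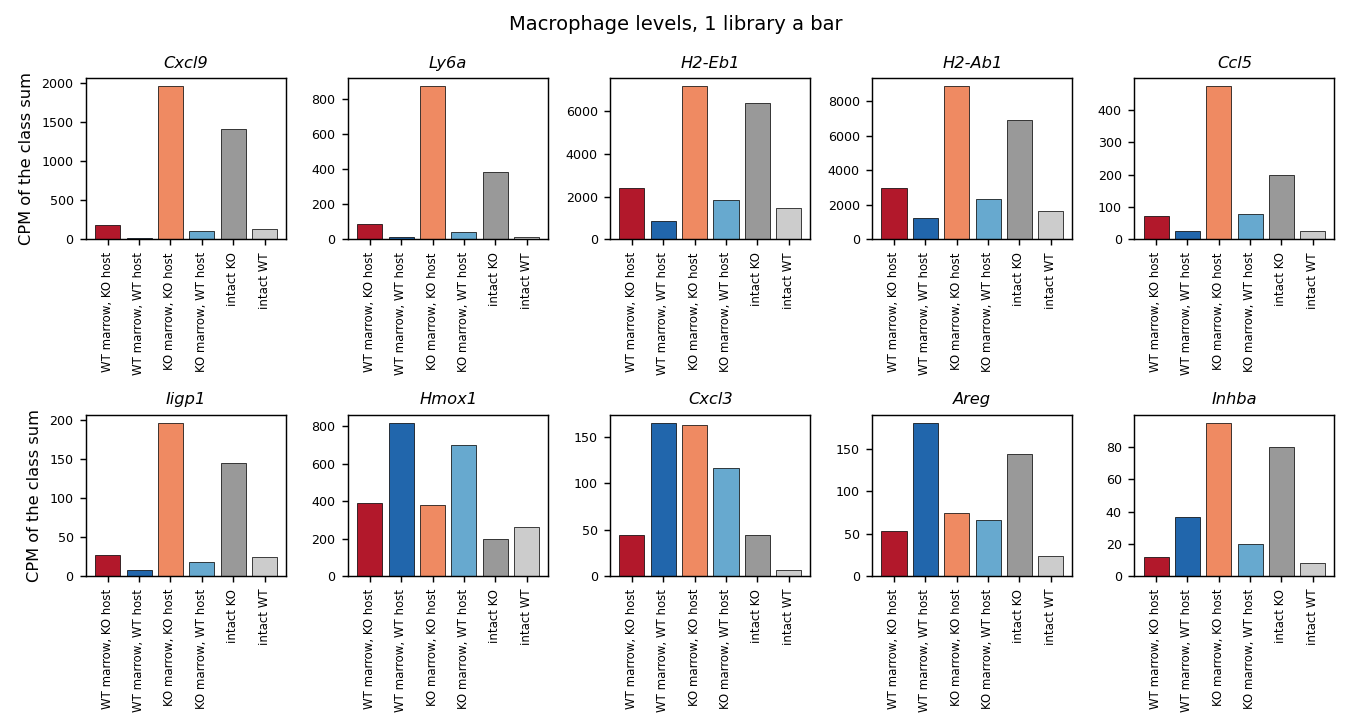
CPM of 10 named genes in the macrophage sums of the 6 libraries, 1 library a bar, with linear axes from 0 and no replicates. For Cxcl9, Ly6a, H2-Eb1, H2-Ab1, Ccl5 and Iigp1 each KO-host or intact KO bar is higher than its WT partner, and the WT marrow in KO host bar is far below the other KO-host bar. Hmox1 is lower in each KO partner, while Cxcl3, Areg and Inhba are lower in the KO host only under WT marrow.

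Mesenchymal-like cells, the cells low in Ptprc, showed higher interferon-induced genes in the KO host. Of 7531 genes counted, 14 (0.186%) were at least 2-fold higher and 10 (0.133%) at least 2-fold lower in the 353 KO-host cells than in the 385 WT-host cells, 0.319% in either direction. Iigp1 was at 50.9 CPM in the KO host and 5.23 CPM in the WT host, a ratio of 9.73 (7.41 to 13). Ifit1, which binds foreign RNA, was at 29.9 CPM in the KO host and 4.86 CPM in the WT host, and its neighbour Ifit3 at 28.5 CPM in the KO host and 6.52 CPM in the WT host. These messages sat in few cells: Ifit1 was found in 33 of the KO-host cells and 13 of the WT-host cells. Ly6a was at 55.5 CPM in the KO host and 16.4 CPM in the WT host, and Ccl5 at 100 CPM in the KO host and 23.4 CPM in the WT host. All 8 counted type I interferon genes were above 0, with a median of 0.59, and 7 of 7 MHC class I genes were above 0, with a median of 0.28. In both lists the direction was that seen in macrophages, and free RNA would bring at most 1.05 CPM of Ifit1, Ifit3 or Iigp1 in either library. As a mean over single cells, an alternative chosen after seeing the data, Ifit3 had a log2 ratio of 0.86 in place of 1.22.

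The Ifit pair differs from Cxcl9 and H2-Eb1 in its promoter letters. The windows of Ifit1 at chr19:34640639-34640888 and Ifit3 at chr19:34583279-34583528, both on the plus strand, are printed with matches to the interferon-stimulated response element, which reads TTTC, any 2 bases and TTTC on this strand, and, in Ifit3, a CCAAT in capitals.
Ifit1: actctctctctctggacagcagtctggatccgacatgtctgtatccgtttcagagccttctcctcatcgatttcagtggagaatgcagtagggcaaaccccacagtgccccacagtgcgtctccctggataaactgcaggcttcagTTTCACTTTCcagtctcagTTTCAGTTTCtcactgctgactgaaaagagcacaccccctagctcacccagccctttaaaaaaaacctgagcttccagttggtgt
Ifit3: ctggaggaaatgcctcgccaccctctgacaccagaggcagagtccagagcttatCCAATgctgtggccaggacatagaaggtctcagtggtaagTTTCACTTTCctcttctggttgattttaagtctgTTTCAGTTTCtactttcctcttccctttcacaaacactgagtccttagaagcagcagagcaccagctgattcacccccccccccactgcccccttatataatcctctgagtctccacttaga
Each holds the element at 2 places, starting 104 and 85 bases before the start in Ifit1 and 156 and 122 bases before it in Ifit3. Promoters were matched for 7 of the 10 higher named genes of this class, and the element was in these 2 only.

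Other higher genes in mesenchymal-like cells were not of the interferon lists. Crabp1, which binds retinoic acid, was at 91.2 CPM in the KO host and 16.5 CPM in the WT host, the hormone precursor Nppb at 24.9 CPM in the KO host and 1.65 CPM in the WT host, and Esm1, an endothelial and tumour proteoglycan, at 25.8 CPM in the KO host and 6.88 CPM in the WT host. Lower genes included contractile and matrix genes. Smooth-muscle actin Actg2 was at 8.61 CPM in the KO host and 41.1 CPM in the WT host, tenascin Tnc at 9.81 CPM in the KO host and 39.3 CPM in the WT host, and the collagen Col1a2 at 14.2 CPM in the KO host and 47.9 CPM in the WT host. Csf2, the growth factor of granulocytes and macrophages, was at 6.99 CPM in the KO host and 27.9 CPM in the WT host. Cholesterol synthesis and uptake genes were below 0 in 11 of 11 cases, with a median of -0.23, and glycolysis and hypoxia genes in 16 of 20, with a median of -0.22. No member of either list reached 2-fold, and the median of all genes counted was -0.02.

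**Figure D4:**
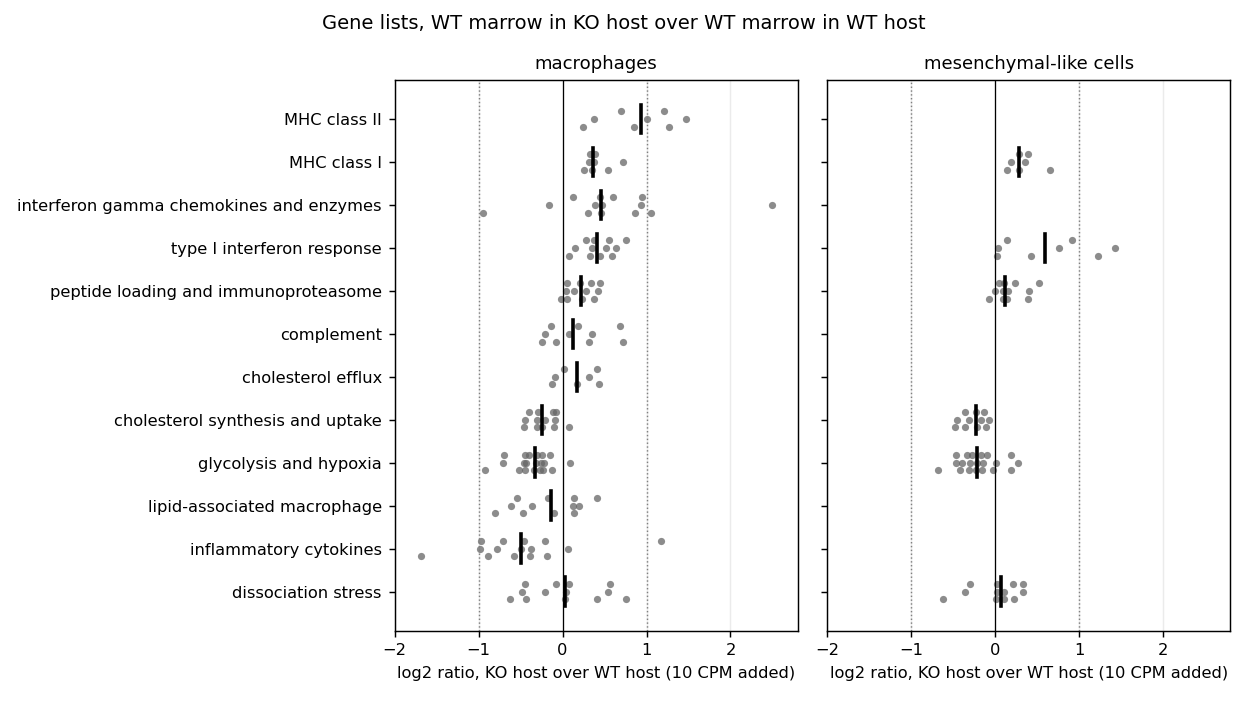
Log2 ratio of WT marrow in KO host over WT marrow in WT host (10 CPM added) for each counted member of the gene lists (grey points) with the list median (black bar), in macrophages (left) and mesenchymal-like cells (right). Dotted lines mark 2-fold. Lists without points on the right were not set for that class. MHC class II (median 0.93) and the interferon lists lie to the right, and inflammatory cytokines (median -0.49) and glycolysis and hypoxia (median -0.33) to the left in macrophages.

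CD8 T cells of the KO host held more Ifng, Prf1 and inhibitory-receptor message per cell sum and less granzyme B. Of 3971 genes counted over 81 KO-host and 131 WT-host cells, 76 (1.91%) were at least 2-fold higher and 34 (0.856%) at least 2-fold lower, 2.77% in either direction, against 4.11% for the host pair under KO marrow and 8.54% for the intact pair. Ifng was at 378 CPM in the KO host (337 to 423) and 32.6 CPM in the WT host (22.1 to 46.2), a ratio of 11.6 (8.01 to 17.4), and was found in 36 of 81 KO-host cells and 22 of 131 WT-host cells. Prf1, the pore-forming perforin, was at 560 CPM in the KO host and 87.2 CPM in the WT host. The chemokines Ccl3 and Ccl4 were at 422 and 745 CPM in the KO host, and at 45.2 and 167 CPM in the WT host. Granzymes split. Gzmb was at 714 CPM in the KO host and 1902 CPM in the WT host, a ratio of 0.376 (0.341 to 0.413). Gzmc was at 33.2 CPM in the KO host (13 cells) and 323 CPM in the WT host (16 cells), and its log2 ratio was -0.47 in place of -2.95 when cells were gated after thinning. In contrast, Gzme (192 CPM in the KO host, 4.20 CPM in the WT host) came from 12 KO-host cells and 1 WT-host cell. The lymphotactin gene Xcl1 was at 101 CPM in the KO host and 334 CPM in the WT host. In the cytotoxic list, 6 of 19 counted genes were at least 2-fold higher and 3 at least 2-fold lower, with a median of 0.16. Ly6a, higher in KO-host macrophages, was lower here, at 138 CPM in the KO host and 400 CPM in the WT host. Of 10 counted type I interferon response genes, 6 were above 0 and 4 below, with a median of 0.20. The lowest of them, Ifitm3, was at 45.6 CPM in the KO host and 181 CPM in the WT host.

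The list of inhibitory receptors and exhaustion genes had 6 of 14 counted members at least 2-fold higher, 2 at least 2-fold lower and a median of 0.79. Over all genes counted in CD8 T cells, 1.91% were at least 2-fold higher and 0.856% at least 2-fold lower, with a median of -0.0012. Tox, a factor of exhausted T cells, was at 133 CPM in the KO host and 26.2 CPM in the WT host, and Rgs16, a signalling regulator of exhausted cells, at 271 CPM in the KO host and 57.8 CPM in the WT host. The receptor Lag3 was at 83.7 CPM in the KO host and 24.2 CPM in the WT host, Havcr2 (Tim-3) at 71.4 CPM in the KO host and 13.7 CPM in the WT host, and Ctla4 at 227 CPM in the KO host and 74.6 CPM in the WT host. Pdcd1 (PD-1) differed by less, at 400 CPM in the KO host and 248 CPM in the WT host. Eomes and Cd160 were the members that were lower: Eomes was at 13.5 CPM in the KO host and 52.5 CPM in the WT host. Nrgn was at 190 CPM over 35 KO-host cells and had no UMI in the WT-host cells. The lower 95% limit of the ratio was 48.4, and the KO-host level was 60.2 times the level of 3 counts in the WT-host class sum.

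Cell-cycle genes lay above 0 in 12 of 14 cases in CD8 T cells, with a median of 0.62 and 1 past 2-fold. Trafficking genes lay below 0 in 8 of 10, with 3 past 2-fold. Of all CD8 T cell genes counted, 1.91% were at least 2-fold higher and 0.856% at least 2-fold lower. Top2a was at 473 CPM in the KO host and 224 CPM in the WT host. The chemokine receptors Ccr2 and Cxcr3 were at 16.0 and 25.9 CPM in the KO host, and at 80.9 and 64.1 CPM in the WT host. Naive and memory genes had a median of 0.32, with Ccr7 at 222 CPM in the KO host and 66.2 CPM in the WT host and Tcf7 at 72.7 CPM in the KO host and 52.5 CPM in the WT host. After drawing to 2000 UMIs, Prf1 was seen in 42.0% of KO-host and 11.5% of WT-host CD8 T cells, Lag3 in 16.0% of KO-host and 3.08% of WT-host CD8 T cells, and Gzmb in 35.8% of KO-host and 64.6% of WT-host CD8 T cells. Prf1 was in 0.0236% of KO-host and 0.0469% of WT-host macrophages treated the same way. Free RNA would account for 0.15 CPM of Prf1 and 0.0109 CPM of Ifng in KO-host CD8 T cells.

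**Figure D5:**
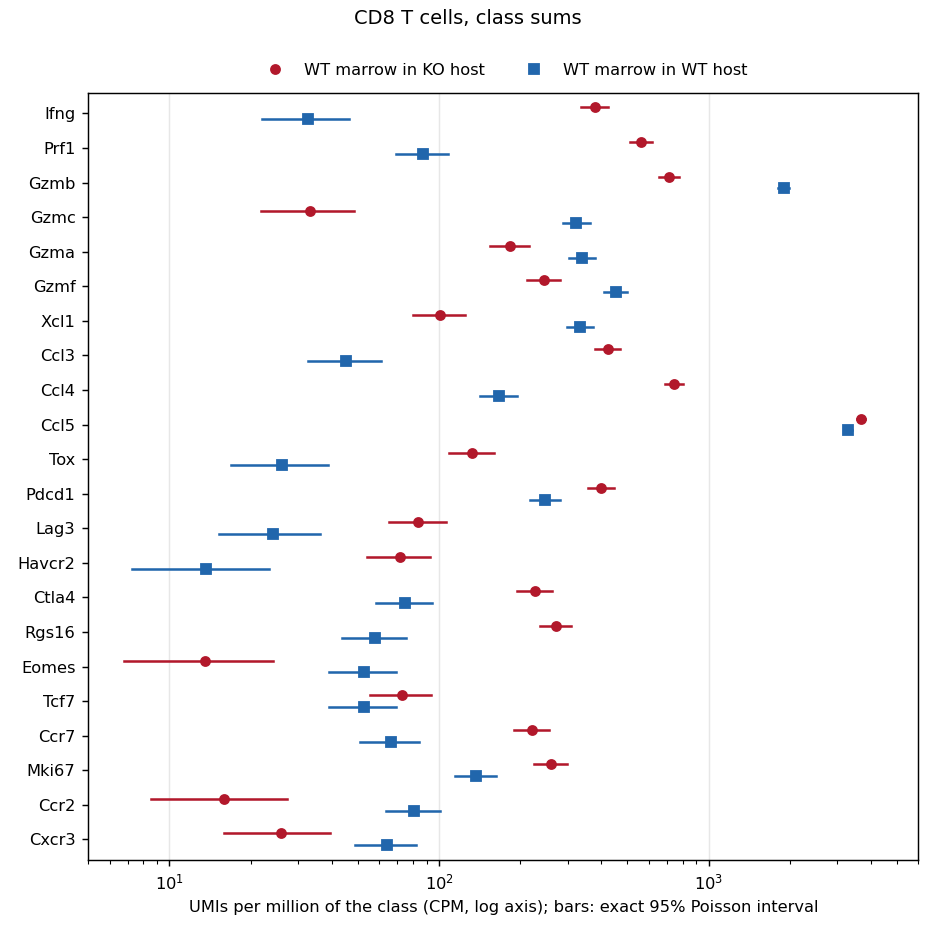
CPM of the CD8 T cell sums (log axis) in WT marrow in KO host (red circles, 81 cells) and WT marrow in WT host (blue squares, 131 cells) with exact 95% Poisson intervals, which cover counting error only. Ifng, Prf1, Ccl3, Ccl4, Tox, Lag3, Havcr2, Ctla4 and Rgs16 lie to the right in the KO host, and Gzmb, Gzmc, Xcl1, Eomes and Ccr2 to the left.

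In other libraries part of this pattern recurred as values. Ifng in CD8 T cells was at 202 CPM in KO marrow in KO host and 23.2 CPM in KO marrow in WT host, and at 153 CPM in intact KO and 39.2 CPM in intact WT. Prf1 was at 811 CPM in KO marrow in KO host and 126 CPM in KO marrow in WT host. Gzmb went the other way under KO marrow, at 2255 CPM in KO marrow in KO host and 1029 CPM in KO marrow in WT host, and was at 1197 CPM in intact KO and 365 CPM in intact WT. Tox was at 383 CPM in intact KO and 379 CPM in intact WT.

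Neutrophils of the KO host held less heat-shock message and less of several lipid-associated genes. The median log2 ratio of all 3356 genes counted was 0.12, so values are read against it. At least 2-fold higher were 64 genes (1.91%), and at least 2-fold lower were 90 (2.68%), 4.59% in either direction. With the class sums scaled to a median ratio of 1, the counts were 34 higher and 113 lower. The chaperone Hspa1a was at 81.2 CPM in the KO host and 876 CPM in the WT host, a ratio of 0.0926 (0.0676 to 0.124), and was found in 16 of 163 KO-host cells and 67 of 405 WT-host cells. Hspa1b was at 46.6 CPM in the KO host and 403 CPM in the WT host, and Hsp90aa1 at 408 CPM in the KO host and 1802 CPM in the WT host. These belong to the dissociation stress list, of which 5 of 13 were at least 2-fold lower, while Fos was at 2751 CPM in the KO host and 2133 CPM in the WT host. The part of sample handling in this difference was not tested. The median mitochondrial share of neutrophils was 0.439% in the KO host and 0.337% in the WT host.

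Of 13 counted genes of the inflammatory cytokine list in neutrophils, 10 were below 0 and 3 above, with a median of -0.25. In this list 2 were at least 2-fold higher and 1 at least 2-fold lower. Over all neutrophil genes counted, 1.91% were at least 2-fold higher and 2.68% at least 2-fold lower, with a median of 0.12. The log2 ratios in the list ran from -1.68 (Tnf) to 2.76, the highest in a gene that did not pass the rule for naming. Tnf was at 72.5 CPM in the KO host and 255 CPM in the WT host. Ccl3 was at 2633 CPM in the KO host and 4983 CPM in the WT host. Il1b was at 19197 CPM in the KO host and 11124 CPM in the WT host, and Ptgs2, the inducible cyclooxygenase, at 2566 CPM in the KO host and 1142 CPM in the WT host. Interferon-inducible Ifi27l2a was at 1098 CPM in the KO host and 453 CPM in the WT host, and the lymphotoxin subunit Ltb at 250 CPM in the KO host and 76.2 CPM in the WT host. Plin2, a lipid-droplet coat protein, was at 632 CPM in the KO host and 1572 CPM in the WT host. In the lipid-associated list, 9 of 11 counted genes were below 0 and 3 at least 2-fold lower. Chil3 was at 69.1 CPM in the KO host, where free RNA would bring 52.7 CPM, and at 544 CPM in the WT host, and its log2 ratio was -0.60 as a mean over single cells, in place of -2.81. Under KO marrow, Hspa1a was at 98.6 CPM in the KO host and 570 CPM in the WT host, and Tnf at 359 CPM in the KO host and 140 CPM in the WT host.

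Classes too small for the search of named genes are given as values. In monocytes (24 cells in the KO host, 44 in the WT host), 9 of 12 counted type I interferon response genes were at least 2-fold higher in the KO host, where 3.37% of the 1841 genes counted were, with 3.59% at least 2-fold lower and 6.95% in either direction. Rsad2, an antiviral enzyme, was at 1948 CPM in the KO host (11 cells) and 192 CPM in the WT host (10 cells). Isg15 was at 1227 CPM in the KO host (19 cells) and 214 CPM in the WT host (16 cells). In dendritic cells of all kinds, 4 of 8 counted genes of that list were above 0 and 4 below. Their median was 0.04, beside -0.05 over all genes counted in that class.

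Mature dendritic cells (39 in the KO host, 53 in the WT host) had lower MHC class II levels in the KO host as class sums. All 7 counted genes were below 0, with a median log2 ratio of -0.71 beside -0.08 over all genes counted, and none reached 2-fold, where 0.992% of 2620 genes were at least 2-fold higher, 2.33% at least 2-fold lower and 3.32% in either direction. H2-Aa was at 3543 CPM in the KO host and 6150 CPM in the WT host, and Cd74 at 8800 CPM in the KO host and 11812 CPM in the WT host. At equal depth, after drawing to 2000 UMIs, the share of cells with an H2-Ab1 UMI was close between the hosts. It was 63.2% in the KO host (46.0 to 78.2%) and 64.0% in the WT host (49.2 to 77.1%). Cd74 was in 100% of KO-host and 94.0% of WT-host cells, too near the ceiling for this share to show a lower level. The difference from macrophages was not tested.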

How the data were processed

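Live CD45+ tumour cells of 6 libraries, 1 per group, were measured with the 10x 3' v3.1 kit per the labels' protocols. Raw UMI counts were deposited as a matrix for each library. The authors had run Cell Ranger 6.1.1 for the 4 transplanted libraries and 7.0.1 for the intact ones, per the file headers. Build mm10 and Seurat are named in the submitters' processing notes. The treatment of intron reads was not given in the sources used here. All files share 30406 genes, to which the tables were limited.

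Cells needed 500 UMIs, 200 genes and at most 15% mitochondrial UMIs, and the 6% with the highest Scrublet score were removed per library (scanpy 1.11.5, scipy 1.17.1). Marker gates per 10000 UMIs gave the classes. Their thresholds were set after marker levels were seen, and the members and gene lists were chosen with earlier results of these data known. Sums per class gave CPM with exact Poisson intervals and ratios with exact conditional binomial intervals, and shares had Clopper-Pearson intervals, all at 95% and for counting error only. Log2 ratios had 10 CPM added. Free RNA of a class was the summed level of the library's cells outside that class, times a rate. RNA freed by the class itself was left out. The rate was estimated from CD3 and T-cell receptor genes in macrophages, monocytes and dendritic cells. In the other classes, neutrophils among them, it was estimated from C1q. The calculations were tested on simulated data.

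With 1 library per group no test was made. Named genes were up to 10 per direction and class with the largest log2 ratio among those 2-fold apart with at least 100 UMIs, 10 positive cells in the higher library, 3 times the free-RNA estimate, a ratio interval excluding 1 and 2-fold under median-ratio scaling, without gate markers, mitochondrial, ribosomal, haemoglobin, immunoglobulin, T-cell receptor and predicted genes. Members of the gene lists were named beside them, some outside the fixed limit of 6 per list, chosen after their values were seen. Alternatives changed the doublet, depth, mitochondrial, gate, scaling, filter, fold and added-CPM settings.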

Additional observations from a re-analysis of the deposited data

Results flagged for a closer look

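For 6 named genes the host difference had the opposite sign under KO marrow, with at least 2-fold on both sides. Each value comes from 1 library a side, and the difference between the marrows was not tested. Inhba in macrophages had a log2 ratio of 1.81 under KO marrow (95 CPM in the KO host, 19.9 CPM in the WT host) against -1.08 under WT marrow. Tnf in neutrophils had 1.30 under KO marrow (359 CPM in the KO host, 140 CPM in the WT host) against -1.68 under WT marrow. In CD8 T cells, Dapl1 had -2.85 under KO marrow (12.2 CPM in the KO host, 150 CPM in the WT host) against 2.16 under WT marrow. Gzmb in CD8 T cells had 1.12 under KO marrow (2255 CPM in the KO host, 1029 CPM in the WT host) against -1.40 under WT marrow. Among mesenchymal-like cells, Tnc had 1.27 under KO marrow (70.7 CPM in the KO host, 23.4 CPM in the WT host) against -1.32 under WT marrow. Sema4a in mesenchymal-like cells had 1.12 under KO marrow (31.1 CPM in the KO host, 8.92 CPM in the WT host) against -1.10 under WT marrow.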

How the results depend on the processing

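No named gene changed direction under the alternatives run. When cells were gated after thinning, the log2 share ratio was -0.14 for cDC1, in place of 0.51, and -0.09 for mesenchymal-like cells, in place of 0.05; the other class shares kept their direction, apart from cells that met several gates. No paired analysis was possible because each group is 1 library, and leaving out a replicate was not possible for the same reason. With stricter gates the log2 share ratio was 0.28 for macrophages, in place of 0.16, and 1.76 for cDC1, in place of 0.51. With a fold of 1.5, genes higher and lower in the KO host numbered 56 and 79 in macrophages, 412 and 268 in neutrophils, 243 and 171 in CD8 T cells, and 56 and 42 in mesenchymal-like cells. With 1 CPM added they numbered 28 and 35 in macrophages, 115 and 55 in CD8 T cells, and 36 and 25 in mesenchymal-like cells, and 121 were higher in neutrophils. With no filter on low counts they numbered 167 and 139 in neutrophils and 171 and 67 in CD8 T cells. Median-ratio scaling left 34 higher in neutrophils, and gating after thinning gave 16 lower in mesenchymal-like cells. In neutrophils, the lipid-associated list had 5 members 2-fold lower, in place of 3, without doublet removal and under median-ratio scaling. The remaining 2 alternatives were chosen after seeing the data: as a mean over single cells, 0 members of the alternative activation list were 2-fold lower in neutrophils, in place of 3, and without C1q-low macrophages 10 genes were lower in macrophages. The cause was not tested in any of these cases. Of 77 named genes, 3 fell short of 2-fold when gated after thinning, 3 with stricter gates, 5 as a mean over single cells and 1 without doublet removal, as did 4 of 20 macrophage genes without C1q-low cells (Thbd at -0.97, Tnfrsf9 at -0.98, Inhba at -0.71 and Car4 at -0.29). Over the alternatives Cxcl9 kept a log2 ratio between 2.33 and 2.87 in macrophages, and H2-Eb1 between 1.44 and 1.5. Spread between mice cannot be measured with 1 library a side, and classes under 50 cells were not searched for named genes.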
